A study of Mus musculus with 2 samples.

Results

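The neuronal nicotinic acetylcholine receptor genes were described in the adrenal gland of C57BL/6J mice. The genes were taken by symbol, and all 10 were found among the 43346 mouse genes of the tables: Chrna3, Chrna4, Chrna5, Chrna6, Chrna7, Chrna9, Chrna10, Chrnb2, Chrnb3 and Chrnb4, with 20 annotated transcripts. The glands came from 8-week-old adults, described as littermates of mixed sex (the sex field reads not collected), with no treatment and no engineered allele named in the labels. There was 1 group with 2 libraries, called biological replicates 1 and 2 in the labels, which carry separate biosample identifiers and 1 shared donor identifier. RNA over 200 nucleotides was selected for poly(A) after removal of ribosomal RNA and read as stranded pairs of 76 nucleotides. The number of animals behind each library was not given in the sources used here, so the spread between the libraries may be partly technical.

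Nicotinic receptors are pentameric cation channels that open when acetylcholine binds between their subunits. In the adrenal medulla, acetylcholine from preganglionic splanchnic nerve endings opens such channels on chromaffin cells, the cells depolarise, calcium enters and catecholamines are released. Alpha subunits carry a pair of adjacent cysteines at the acetylcholine site, and beta subunits lack it. The alpha3 and beta4 subunits are known as the main partners in autonomic ganglia and chromaffin cells, alpha4 and beta2 as the main partners in brain, alpha7 as a subunit that forms channels by itself, and alpha9 with alpha10 as the receptor of cochlear hair cells.

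Over mouse genes, replicate 1 held 47615328 expected counts (read pairs per gene as the authors estimated them) and replicate 2 held 52890686. The gland's defining markers were present in both libraries. All 13 chromaffin markers and all 6 cortex markers reached 1 TPM (transcript abundance per length, scaled to a fixed library total) in both, a level called detected here. With 1 group no condition was compared, and differences are between the 2 libraries. Fewer cells of a type and less RNA per cell cannot be told apart in such bulk tissue.

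The start regions of the 4 members with the highest mean levels are shown. Under the main scaling given below, Chrna3 and Chrnb4 differed between the libraries in one direction, Chrna4 in the other and Chrna7 by no detectable amount. A link of the start regions to the levels or to these differences was not tested. The windows run from 250 bases before to 50 bases after the RefSeq start (build GRCm38.p6, the same assembly as mm10) and read 5′ to 3′ on the gene's strand. They are chr9:55026513-55026812, minus strand for Chrna3, chr9:55048495-55048794, minus strand for Chrnb4, chr2:181039128-181039427, minus strand for Chrna4 and chr7:63212477-63212776, minus strand for Chrna7. Capitals mark GC boxes (GGGCGG on either strand).
Chrna3: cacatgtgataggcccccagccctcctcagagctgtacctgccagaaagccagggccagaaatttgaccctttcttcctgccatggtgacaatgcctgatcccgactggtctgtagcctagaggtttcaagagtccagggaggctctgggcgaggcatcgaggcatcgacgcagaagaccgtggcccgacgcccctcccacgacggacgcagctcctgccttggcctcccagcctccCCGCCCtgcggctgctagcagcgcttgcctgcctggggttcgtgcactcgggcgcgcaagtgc
Chrnb4: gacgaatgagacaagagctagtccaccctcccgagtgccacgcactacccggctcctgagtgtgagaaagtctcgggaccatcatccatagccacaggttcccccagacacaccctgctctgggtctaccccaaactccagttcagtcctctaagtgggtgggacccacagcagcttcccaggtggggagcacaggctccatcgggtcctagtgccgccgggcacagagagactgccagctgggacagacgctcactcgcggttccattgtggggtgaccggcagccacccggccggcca
Chrna4: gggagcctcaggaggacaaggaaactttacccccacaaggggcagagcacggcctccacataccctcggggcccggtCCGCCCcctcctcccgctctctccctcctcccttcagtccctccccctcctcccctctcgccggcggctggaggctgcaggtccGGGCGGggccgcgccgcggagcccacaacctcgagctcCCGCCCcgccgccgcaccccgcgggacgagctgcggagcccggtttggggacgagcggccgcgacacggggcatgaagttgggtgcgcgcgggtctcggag
Chrna7: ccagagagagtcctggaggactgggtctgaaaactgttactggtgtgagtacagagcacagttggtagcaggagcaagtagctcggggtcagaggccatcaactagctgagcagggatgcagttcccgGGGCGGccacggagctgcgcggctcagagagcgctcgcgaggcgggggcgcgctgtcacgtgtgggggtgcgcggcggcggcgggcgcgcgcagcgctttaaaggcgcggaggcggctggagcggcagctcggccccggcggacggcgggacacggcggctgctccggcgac

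The GC box occurred 1 time in the Chrna3 window, 3 times in that of Chrna4 and 1 time in that of Chrna7, and the letters were not found in the Chrnb4 window. Of all 32851 windows of this length, 35.7% held at least 1 GC box. An E-box (CANNTG, both strands) occurred 3 times for Chrna3, 2 times each for Chrnb4 and Chrna7 and 0 times for Chrna4, against 72.3% of all windows with at least 1, and no E-box shared a base with a GC box. The G and C content of the 4 windows ran from 63.0% for Chrnb4 to 74.3% for Chrna4, and the median of all windows was 52.7%. Windows were found for 8 of the 10 members. The fifth detected member, Chrnb2, had 59.0%, and of the members below 1 TPM Chrna9 had 52.0% and Chrna10 49.3%, while Chrna5 had 2 RefSeq starts at 41.3% and 65.0%. These matches are descriptions of letters and not sites of binding.

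In the gland 5 of the 10 genes were detected, namely Chrna3, Chrna7, Chrna4, Chrnb4 and Chrnb2. The other 5 stayed below 1 TPM in both libraries. The summed level of the family was 50.5 TPM in replicate 1 and 42.6 TPM in replicate 2. Alpha genes held 73.4% of it in replicate 1 and 80.1% in replicate 2. Every member lay below the middle of the expressed genome: 6592 of the 11718 detected protein-coding genes stood above Chrna3, the highest member by mean, and their median level was 16.1 TPM. All 10 members had whole expected counts in both gene tables (within 0.005 of a whole number), so no fractional sharing of reads with other genes showed in their counts.

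**Figure D1:**
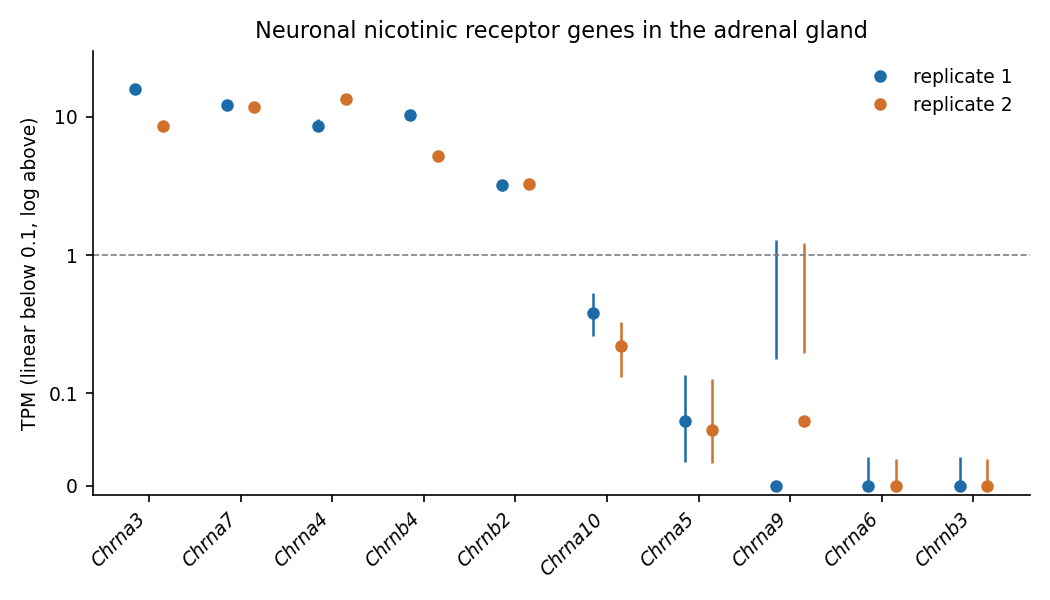
Level of each member in TPM (vertical axis, linear below 0.1 and log above) in replicate 1 and replicate 2; points are the deposited TPM and bars the interval the authors deposited with it, whose level is not stated. The 5 members on the left lie above the dashed line at 1 TPM in both libraries, and the Chrna9 points lie below their own bars.

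The ganglionic genes Chrna3 and Chrnb4 were both expressed. Chrna3, the alpha3 subunit (mm10 chromosome 9, 55010111 to 55026562, minus strand), had 1620 expected counts in replicate 1 and 931 in replicate 2. Its level was 15.9 TPM in replicate 1 and 8.53 TPM in replicate 2, a mean of 12.2 ± 5.22 TPM (SD, n = 2). Replicate 1 was the higher library. Chrnb4, the beta4 subunit (chromosome 9, 55028154 to 55048779, minus strand), had 1174 and 637 expected counts and levels of 10.3 and 5.20 TPM in replicates 1 and 2, a mean of 7.73 ± 3.58 TPM (SD, n = 2). As for Chrna3, replicate 1 was higher, and the ranges of both genes over the libraries overlap. The third gene of the cluster, Chrna5, whose accessory subunit can join alpha3 and beta4, had 6 counts in each library and levels of 0.07 and 0.06 TPM.

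These 3 genes stand side by side within 67900 bases. Chrna5 lies on the plus strand and ends 2331 bases before Chrna3, and 1591 bases separate Chrna3 from Chrnb4, both on the minus strand. Chrna3 exceeded its neighbour Chrna5 234-fold in replicate 1 (exact 95% counting interval 107 to 640) and 135-fold in replicate 2 (61.7 to 368). Of the 3 neighbours, Chrna5 was thus far below the others in both libraries. The ratio of Chrna3 to Chrnb4 was 1.55 (1.44 to 1.67) in replicate 1 and 1.64 (1.48 to 1.82) in replicate 2. The intervals of the libraries overlap. They cover counting error alone, because reads copied by PCR are not separate molecules. Ratios per length also rest on the deposited transcript models. Chrna3 is 3123 bases long there and 4358 in the GENCODE M21 annotation, Chrnb4 3486 and 3723, and Chrna5 2738 and 1877. The effect of these lengths on the ratios was not tested.

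The genes known from brain receptors were expressed as well. Chrna4, the alpha4 subunit (chromosome 2, 181018380 to 181043546, minus strand), had 913 expected counts in replicate 1 and 1476 in replicate 2. Its level was 8.55 TPM in replicate 1 and 13.4 TPM in replicate 2, a mean of 11.0 ± 3.46 TPM (SD, n = 2). Replicate 2 was the higher library, unlike for Chrna3 and Chrnb4. Chrnb2, the beta2 subunit (chromosome 3, 89746195 to 89764632, minus strand), had 576 and 633 counts and levels of 3.19 and 3.28 TPM, a mean of 3.23 ± 0.0636 TPM (SD, n = 2). The libraries nearly coincided for Chrnb2. Chrna4 exceeded Chrnb2 2.68-fold in replicate 1 (2.41 to 2.98) and 4.10-fold in replicate 2 (3.73 to 4.51), and Chrnb4 exceeded Chrnb2 3.21-fold (2.91 to 3.56) and 1.59-fold (1.42 to 1.77). The intervals of the libraries do not overlap for either ratio. The ratio of Chrna4 to Chrnb2 was not planned beforehand.

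Chrnb2 overlaps Adar, an RNA-editing enzyme gene on the opposite strand. The GENCODE M21 model of Chrnb2 has 6399 exon bases, of which 1014 lie in exons of Adar, and the model in the deposited table is 5384 bases long. Adar itself had 21.1 and 22.0 TPM in replicates 1 and 2. The libraries are stranded, the strand setting of the counting was not given in the sources used here, and a part of Adar reads in the Chrnb2 value was not tested. Chrna6 (chromosome 8, 27403212 to 27413944) and Chrnb3 (27368711 to 27399730), which neighbour each other at 3481 bases and whose subunits join alpha4 and beta2 in dopamine neurons, had 0 counts in both libraries. At 3 counts a level of 0.0318 TPM in replicate 1 and 0.0297 TPM in replicate 2 would be the limit for Chrna6, and 0.0197 and 0.0184 TPM that for Chrnb3.

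Chrna7, the alpha7 subunit (chromosome 7, 63098692 to 63212569, minus strand), had nearly the same level in both libraries. It had 799 expected counts in replicate 1 and 833 in replicate 2, and levels of 12.1 and 11.8 TPM, a mean of 11.9 ± 0.247 TPM (SD, n = 2). The ratio of Chrna3 to Chrna7 was 1.31 (1.21 to 1.43) in replicate 1 and 0.725 (0.659 to 0.797) in replicate 2. Chrna3 was therefore the higher gene in replicate 1 and Chrna7 in replicate 2.

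Of the hair cell pair, Chrna10 (chromosome 7, 102111266 to 102116828, minus strand) had 31 and 19 counts and levels of 0.38 and 0.22 TPM. Both values are below the detection level but above that of 3 counts, which was 0.0372 and 0.0347 TPM. The M21 exons of Chrna10 share 1025 of 2513 bases with exons of Art1 on the opposite strand, and Art1 had 0.28 and 0.02 TPM in replicates 1 and 2. A part of Art1 reads in the Chrna10 value was not tested. Chrna9 (chromosome 5, 65934921 to 65977326, plus strand) had 0 counts in replicate 1 and 1 in replicate 2. That single count fell on a short transcript of 550 bases, not on the 1843-base transcript with the longest coding sequence. In replicate 2 Chrna10 was 2.97-fold above Chrna9 per length, with a counting interval of 0.472 to 123 that includes 1. Chrna7 exceeded Chrna10 31.5-fold in replicate 1 (22.0 to 46.7) and 53.6-fold in replicate 2 (34.1 to 89.4).

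By mean level the order was Chrna3, Chrna7, Chrna4, Chrnb4, Chrnb2, Chrna10, Chrna5 and Chrna9, with Chrna6 and Chrnb3 at 0. Neighbours in this order were called apart where the TPM ranges of their 2 libraries do not overlap, which held at 3 steps. These were the steps from Chrnb4 to Chrnb2, from Chrnb2 to Chrna10 and from Chrna10 to Chrna5. The ranges of neighbours among the first 4 genes overlapped, and Chrna3 ranked first in replicate 1 while Chrna4 ranked first in replicate 2. Chrna3 with Chrnb4 held 51.8% of the family's TPM in replicate 1 and 32.3% in replicate 2, and Chrna4 with Chrnb2 held 23.3% and 39.3%. The first pair held more than the second in replicate 1 and less in replicate 2.

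Among the detected members, Chrna4 alone had reads on more than 1 annotated transcript. For Chrna3, Chrna5, Chrna7, Chrna10, Chrnb2 and Chrnb4, and for Chrna6, the deposited tables list 1 transcript each, and for Chrna4 they list 4, of which 1 was at 0 in both libraries and 1 had 1.71% of the gene's TPM in replicate 2 and none in replicate 1. The 7-exon transcript of Chrna4 (ENSMUST00000108851) had 4.67 and 7.65 TPM in replicates 1 and 2, and the 6-exon transcript (ENSMUST00000067120) had 3.88 and 5.56 TPM. The 7-exon form held 54.6% and 56.9% of the gene's TPM, a mean of 55.8% ± 1.63 (SD, n = 2), and led in both libraries by point value. In replicate 1 the deposited intervals of the 7-exon form (3.72 to 5.45 TPM) and the 6-exon form (3.42 to 4.31 TPM) overlap. In replicate 2 they do not (6.47 to 8.61 and 4.98 to 6.06 TPM). Both forms were higher in replicate 2. By expected counts the 6-exon form led, with 590 against 323 in replicate 1 and 904 against 567 in replicate 2, since it is 4565 bases long in the table and the other 2183. The split of reads between overlapping transcripts is the authors' statistical estimate.

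The 2 forms of Chrna4 end in different coding sequence. In M21 they share 1879 coding bases. The 6-exon form then has 8 bases and a stop for a protein of 629 residues, and the 7-exon form 44 bases and a stop for 641 residues, from a last exon at 181018380 to 181018569. The M21 model of the 7-exon form is 2071 bases long, and the deposited model, to which the shares above belong, is 2183. For the 6-exon form both models are 4565 bases long. The ends, which show where the proteins part, are printed as cDNA of the minus strand of chromosome 2, 5′ to 3′, with 30 shared bases in lower case and the bases of each form, stop codon included, in capitals.
Chrna4 6-exon form: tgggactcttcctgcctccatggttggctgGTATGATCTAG
Chrna4 7-exon form: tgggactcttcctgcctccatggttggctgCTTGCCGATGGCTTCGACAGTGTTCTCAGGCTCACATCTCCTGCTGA

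The encoded proteins of the members range from 438 residues for Chrna5 to 641 for Chrna4 by translation of the GENCODE M21 coding sequences. Adjacent cysteines occurred in all 7 alpha proteins and in 0 of the 3 beta proteins. A tyrosine before them with 1 residue between occurred in 6 of the 7, the exception being Chrna5. Identity over aligned residues ran from 33.7% to 67.6% among the 45 pairs, with a median of 42.0%. The detected pair Chrnb2 and Chrnb4 shared 63.4% and Chrna3 and Chrna4 60.7%. Chrna3 shared 63.0% with Chrna6, which had 0 counts in both libraries.

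The libraries were then compared gene by gene. Expected counts of replicate 1 over replicate 2 were tested with a two-sided exact binomial test, scaled with TMM (a scaling that takes most genes as equal) and adjusted by Benjamini-Hochberg over the 15824 genes whose counts summed to 20 or more. A gene was called at an adjusted p under 0.05 and at least 2-fold. This compares the reads of 2 libraries, covers counting error only and has no replicate check. Of the 10 members 6 had enough counts, and 1 of these was called, against 6.96% of all tested genes in either direction and 4.41% higher in replicate 1.

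Chrnb4 was the called member, 2.05-fold higher in replicate 1 with a log2 ratio of 1.03 (0.89 to 1.17; adjusted p 3.7e-49 in the exact binomial test). Chrna3 was close beside it at 1.93-fold and a log2 ratio of 0.95 (0.83 to 1.07), on the other side of the 2-fold limit. The intervals of both genes overlap, and both include the limit, so the call does not separate them. Chrna4 was 1.46-fold higher in replicate 2, with a log2 ratio of -0.54 (-0.66 to -0.42). The log2 ratio was 0.09 (-0.05 to 0.23) for Chrna7, 0.02 (-0.15 to 0.18) for Chrnb2 and 0.84 (-0.01 to 1.76) for Chrna10, and all 3 intervals include 0. For Chrna10, with 31 and 19 counts, a difference was not detectable at this depth. By adjusted p alone, Chrna3 and Chrnb4 were higher in replicate 1 and Chrna4 in replicate 2, that is 3 of 6, against 58.2% of all tested genes (29.6% higher in replicate 1 and 28.6% in replicate 2). A share of 3 in 6 is near that background.

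**Figure D2:**
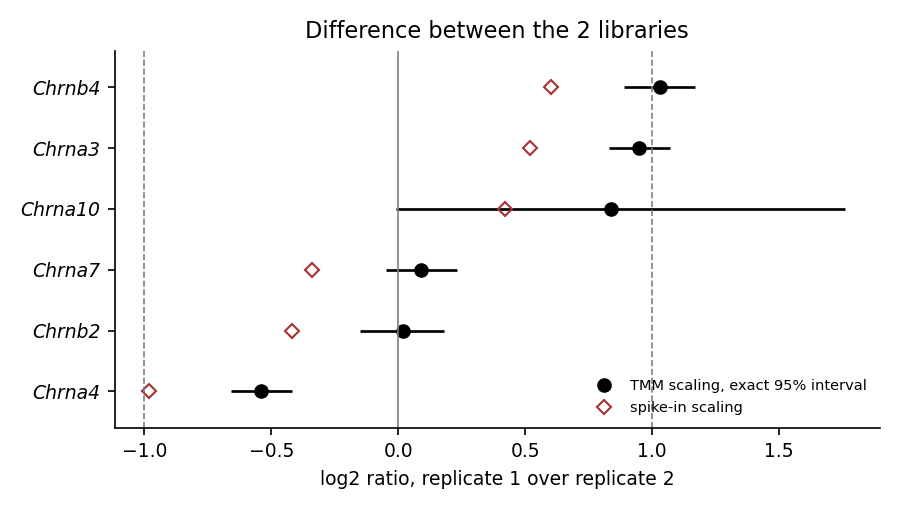
Log2 ratio of replicate 1 over replicate 2 (horizontal axis) for the 6 tested members; filled points with exact 95% intervals use TMM scaling and open diamonds spike-in scaling, and dashed lines mark 2-fold. Chrnb4 at 1.03 and Chrna3 at 0.95 lie together near the line, and Chrna4 at -0.54 lies on the other side of 0.

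The direction depended in part on the scaling. Scaled to the ERCC spike-in RNAs, log2 ratios shifted by -0.43, and the called genes changed from 698 higher in replicate 1 and 404 in replicate 2 to 289 and 1303. Chrnb4 and Chrna3 stayed higher in replicate 1 at log2 ratios of 0.60 and 0.52, and Chrnb4 was no longer 2-fold. Chrna4 moved to -0.98, Chrna7 to -0.34 and Chrnb2 to -0.42, so that Chrna7 and Chrnb2 changed sign. That the libraries did not differ for Chrna7 and Chrnb2 thus held under TMM scaling and not under spike-in scaling. When replicates were assumed to vary biologically by a coefficient of 0.2 (edgeR), no member had an adjusted p under 0.05, the lowest being 0.33 for Chrnb4.

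**Figure D3:**
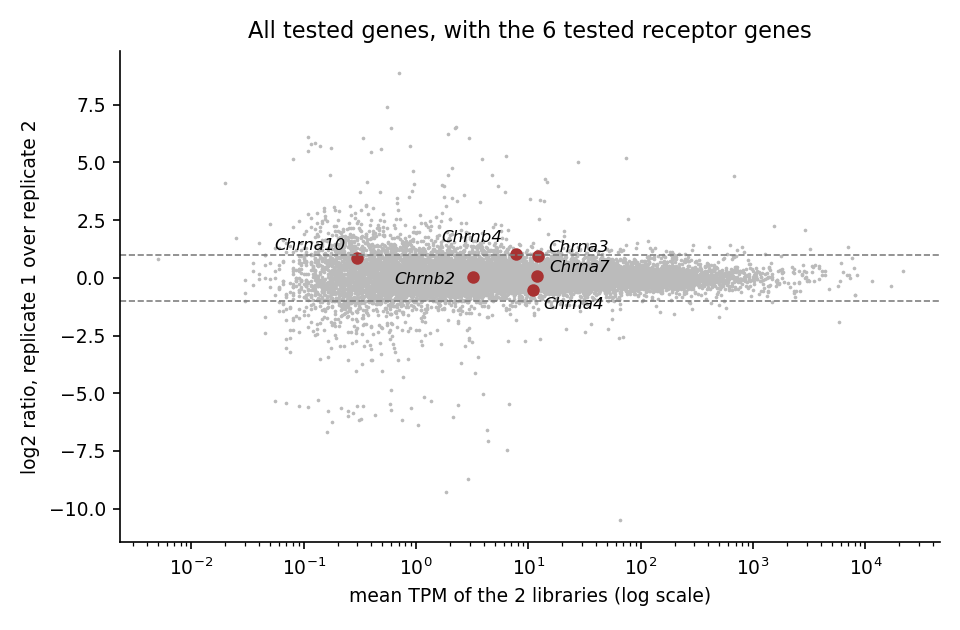
Log2 ratio of replicate 1 over replicate 2 against mean TPM (log axis) for the tested genes in grey, with the 6 tested members in red; dashed lines mark 2-fold. Chrnb4 at 1.03 and Chrna3 at 0.95 lie near the upper dashed line, and Chrna7 at 0.09 and Chrnb2 at 0.02 lie near 0.

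Markers of cells that could carry these receptors were compared in the same way. The marker lists were chosen with earlier results of these data known and lend no independent weight. Of 13 chromaffin markers 3 were called, all higher in replicate 1: Chgb, a granule protein (290 and 147 TPM), Slc18a2, a vesicular monoamine transporter (8.33 and 4.02 TPM), and Insm1, a transcription factor (23.2 and 11.7 TPM). Of all tested genes 4.41% were called higher in replicate 1. The chromaffin list's median log2 ratio was 0.19, and its summed level 4089 TPM in replicate 1 and 3753 TPM in replicate 2. Chga, another granule protein, had a log2 ratio of 0.26, Th, the first enzyme of catecholamine synthesis, 0.19, Dbh, which makes noradrenaline, 0.00, and Pnmt, which makes adrenaline, -0.60. By adjusted p alone 7 of the 13 were higher in replicate 1, 1 in replicate 2 and 5 in neither. The 8 of 13 in either direction are near the 58.2% of all tested genes. By direction all tested genes split more evenly, with 29.6% higher in replicate 1 and 28.6% in replicate 2. With spike-in scaling Chgb (0.60), Slc18a2 (0.67) and Insm1 (0.61) fell below 2-fold, Chga (-0.17) and Th (-0.24) turned toward replicate 2, and Pnmt (-1.03) was called higher in replicate 2. The list's median was then -0.24. The part of chromaffin cells in the values of Chrna3 and Chrnb4 was not tested.

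Sympathetic neurons also use alpha3 and beta4 receptors. Of 10 sympathetic neuron markers 9 were tested and 8 called, all higher in replicate 1, against 4.41% of all tested genes called in that direction. Among the called markers were Prph, Nefl, Nefm, Nefh, Stmn2, Elavl4 and Isl1. The median log2 ratio was 1.51, and the summed level was 58.4 TPM in replicate 1 and 25.6 TPM in replicate 2, with none at 0. Only 5 of the 10 were detected, that is at 1 TPM or more in both libraries. Nefl, Nefm, Nefh and Elavl4 were at 0.91, 0.21, 0.70 and 0.17 TPM in replicate 2, and Elavl4 had 24 and 9 counts. Prph, the peripheral neuron filament peripherin, stood at 8.30 and 1.70 TPM, and Isl1, a transcription factor of sympathetic neurons, at 9.99 and 2.59 TPM. For Isl1 the TPM values differ by more than its counts of 368 and 181, which give 2.25-fold. Snap25, a synaptic fusion protein, was not called, with a log2 ratio of 0.48. Whether chromaffin cells also express the markers of this list was not tested. Log2 ratios were 1.83 for Nefm, 1.87 for Nefh and 2.38 for Nefl, and 1.17 for Isl1, beside 1.03 for Chrnb4 and 0.95 for Chrna3. With spike-in scaling the list's median was 1.09 and 4 of the 9 were called, namely Prph, Nefl, Nefm and Nefh. The part of sympathetic neurons in the values of Chrna3 and Chrnb4 was not tested.

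Relative to Th, there were 32.4 Chrna3 transcripts per 1000 in replicate 1 (30.8 to 34.1) and 19.2 in replicate 2 (18.0 to 20.5). For Chrnb4 the values were 20.9 (19.7 to 22.2) and 11.7 (10.8 to 12.7). Both were lower in replicate 2 relative to Th, with intervals that do not overlap. Th, at a log2 ratio of 0.19, was the only chromaffin marker used as reference. The log2 ratios of the 13 chromaffin markers ran from -0.60 to 1.10, so this result holds for Th and not for each marker. For Chrna7, whose ratio to Th was not planned beforehand, the values were 24.7 (23.0 to 26.5) and 26.5 (24.7 to 28.4). These intervals overlap.

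The other marker lists are given by their counts and medians. Of all tested genes 6.96% were called in either direction and 4.41% higher in replicate 1. Of 7 Schwann markers 1 was called, higher in replicate 1, with a median of 0.48 and summed levels of 34.5 and 23.5 TPM. Of 5 adipose markers 2 were called, Cfd and Ucp1, with a median of 0.85 and summed levels of 12265 and 5262 TPM. All 6 cortex markers were higher in replicate 2 by adjusted p and 0 reached 2-fold. Among these steroid-making genes the log2 ratio was -0.15 for Hsd3b1, -0.57 for Star, -0.28 for Cyp11a1 and -0.59 for Cyp11b1. The list's median was -0.58, beside -0.54 for Chrna4, and their summed levels were 8207 and 11333 TPM. Macrophages, which use alpha7, had a median of 0.04 over 6 markers and summed levels of 469 and 440 TPM, with 0 called. With spike-in scaling the medians were 0.05 for Schwann, 0.41 for adipose, -1.01 for cortex and -0.39 for macrophage markers. Neither Cfd nor Ucp1 was then called, and 3 cortex markers and 1 macrophage marker were called higher in replicate 2. No marker of these lists was at 0 in both libraries. The median of all tested genes was 0.00 and that of the 6 tested members 0.47. Which cells hold the transcripts of each subunit was not tested.

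**Figure D4:**
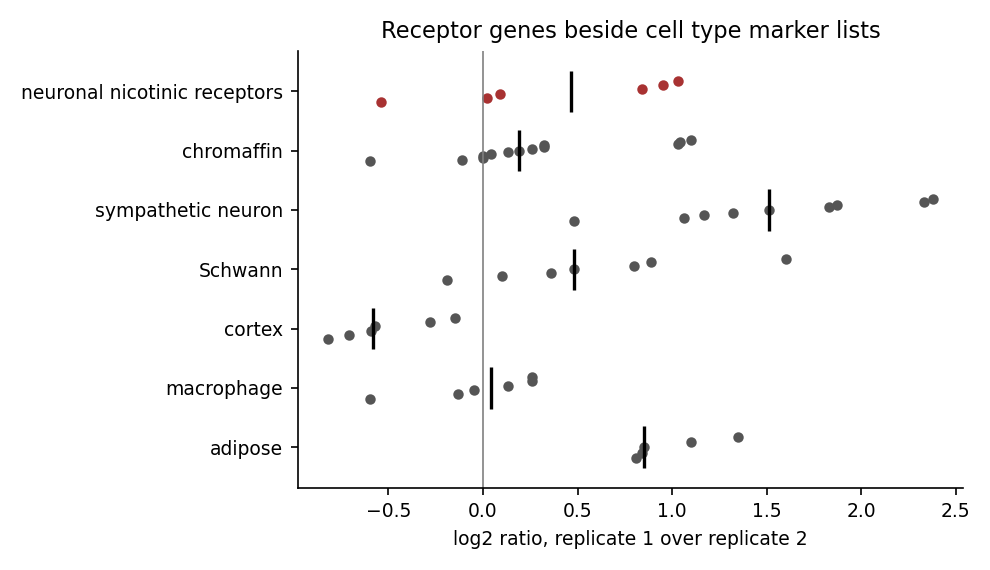
Log2 ratio of replicate 1 over replicate 2 (horizontal axis) for the tested genes of each list, 1 point a gene, with the list's median as a bar, under TMM scaling; spike-in scaling shifts all points by -0.43. The receptor genes spread from -0.54 to 1.03, while the sympathetic neuron markers lie at 0.48 and above and the cortex markers at -0.15 and below.

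Among the other nicotinic receptor genes 1 of 6 was detected. Chrnb1, the beta subunit of the muscle receptor, had 3.06 and 2.70 TPM in replicates 1 and 2. Chrna2, a neuronal alpha subunit, stood at 0.68 and 0.27 TPM with 79 and 33 counts, and was called higher in replicate 1 at a log2 ratio of 1.40 (0.81 to 2.04), a call lost with spike-in scaling at 0.97. It lay below the detection level in both libraries. Of the muscle subunits, Chrne had 0 and 5 counts and Chrna1 0 and 4, and Chrnd and Chrng had 0 in both libraries. The partners of Chrnb1 in the muscle receptor were thus at or near 0.

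Several genes for the assembly and tuning of nicotinic receptors stood above every receptor gene. Of 9 such genes 6 were detected. Tmem35a (NACHO), a chaperone that assembles alpha7 and other receptors, had 122 and 132 TPM in replicates 1 and 2, and Ric3, another chaperone of alpha7, had 107 and 97.9 TPM. Both exceeded every member in both libraries. The membrane-anchored modulators Ly6e and Lynx1 stood at 450 and 521 TPM and at 84.8 and 65.4 TPM. Lypd1, an inhibitor of the same family, was the 1 called gene among 7 tested, at 2.04 and 0.97 TPM and 2.01-fold higher in replicate 1. With spike-in scaling Lypd1 was no longer called (0.57), and 1 other gene of the list was called higher in replicate 2. By adjusted p alone 3 of the 7 were higher in replicate 1 and 4 in replicate 2, and with spike-in scaling 1 and 5.

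Transcripts for making acetylcholine had few counts, and acetylcholinesterase and its membrane anchor were the detected genes of breakdown. Chat, the enzyme of acetylcholine synthesis (chosen for mention after its values were seen), had 0 counts in replicate 1 and 1 in replicate 2. Ache, acetylcholinesterase, stood at 18.1 and 10.9 TPM, with a log2 ratio of 0.74 (0.62 to 0.86) toward replicate 1, and its membrane anchor Prima1 at 1.13 and 2.17 TPM. Bche, butyrylcholinesterase, stood below the detection level at 0.58 and 0.76 TPM, and the collagen tail gene Colq had 5 and 10 counts. Of the 7 genes of supply and breakdown 2 were detected, 3 tested and 0 called at 2-fold, and by adjusted p alone Ache was higher in replicate 1 and Prima1 in replicate 2. With spike-in scaling Ache was at 0.31 and Prima1, at -1.29, was called higher in replicate 2. Splanchnic nerve cell bodies lie in the spinal cord, outside the gland, and whether this bears on the Chat counts was not tested.

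Muscarinic receptors, the G protein-coupled receptors for acetylcholine, were lower than the leading nicotinic genes. Of 5 genes 2 were detected, Chrm3 at 1.29 and 2.95 TPM and Chrm1 at 1.54 and 1.07 TPM. Chrm4 stood at 0.28 and 0.49 TPM, and Chrm2 and Chrm5 each at 0.02 TPM in replicate 1 and 0 in replicate 2. Their summed level was 3.15 TPM in replicate 1 and 4.51 TPM in replicate 2, against 50.5 and 42.6 TPM for the 10 neuronal nicotinic genes. Of 3 tested genes 0 were called at 2-fold, and by adjusted p alone Chrm1 was higher in replicate 1. With spike-in scaling Chrm1 was at -0.01 and Chrm4, at -1.18, was called higher in replicate 2.

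**Figure D5:**
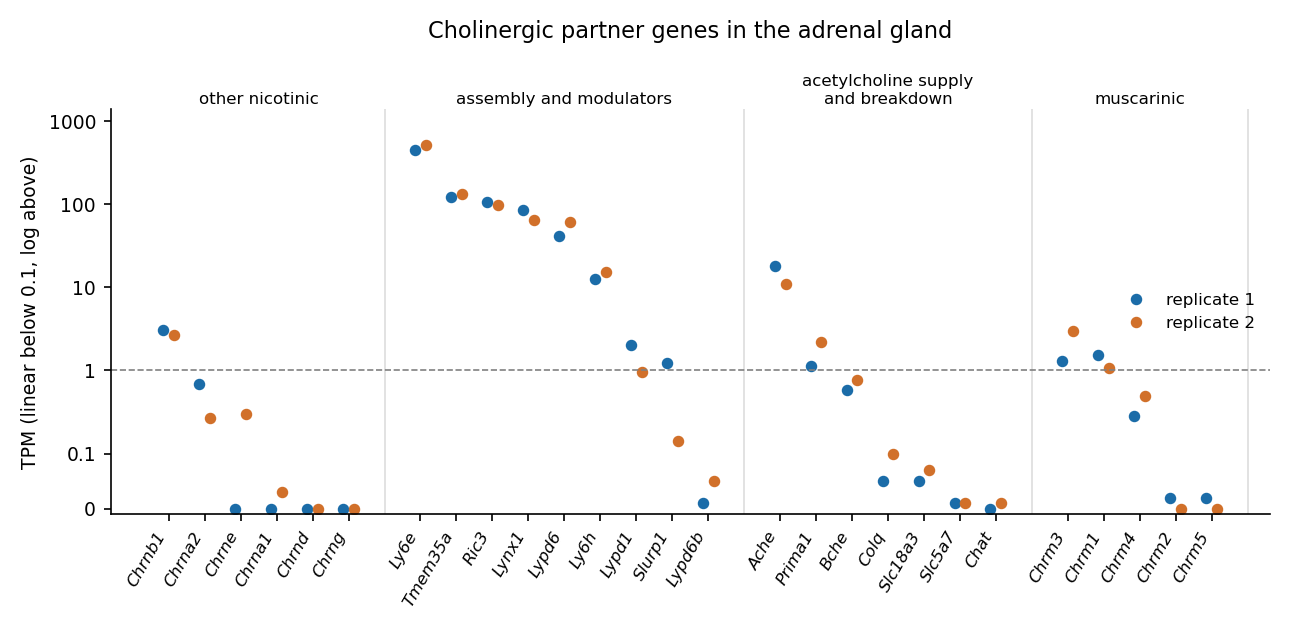
Levels in TPM (vertical axis, linear below 0.1 and log above) of other nicotinic receptor genes, assembly and modulator genes, acetylcholine supply and breakdown genes and muscarinic receptors, 1 point a library; the dashed line marks 1 TPM. Tmem35a and Ric3 lie near 100 TPM, above each receptor gene, and Chat lies at 0 to 0.01 TPM.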

How the data were processed

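The deposited gene and transcript tables hold 1 library each, made by the authors from reads aligned to mm10 transcripts of annotation M4, per the readme files deposited with them. The quantifier was not given in the sources used here. Per the file headers the authors gave an expected count (an estimate of read pairs, not normalized), a posterior mean count, TPM, FPKM and an interval of TPM whose level is not stated. Identifiers without version were matched to GENCODE M21 on the same assembly, which named 42462 of 43346. Spike-ins and other sequences were left out of library sizes. The contig and junction tables in mm9 were not used here, because no mm9 annotation was used to place the genes.

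Computed here were means and SDs over both libraries, per-length ratios with exact (Clopper-Pearson) 95% intervals, and limits at 3 counts per library. Expected counts were rounded for the binomial test (scipy 1.17.1), with TMM factors from edgeR 4.0.16 in R 4.3.3, a prior count of 0.5, Benjamini-Hochberg adjustment across all genes tested, and a check on simulated counts. With 1 library a side, a quasi-likelihood test has no residual degrees of freedom. Proteins were translated and aligned globally (BLOSUM62). The 10 members and the other 10 lists (74 genes) were chosen with earlier results of these data known. All members are named, and of each other list the up to 4 highest genes and every called gene except 2 that are not reported here, plus Chat, Chrnd, Chrng, Chrm2, Chrm5, Nr5a1 and Slurp1, chosen after their values were seen. Alternatives were other scalings, count filters, posterior means, FPKM, pseudocounts and single libraries.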

Additional observations from a re-analysis of the deposited data

How the results depend on the processing

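Chrnb4 lost its 2-fold call under spike-in scaling (log2 ratio 0.60) and was below 2-fold from TPM + 1 (0.86) and TPM + 0.1 (0.97). Other size factors, total counts, no count filter and posterior mean counts left Chrnb4 as the 1 called member. The count of called members, 1 in the main analysis, was 0 with spike-in scaling, 0 when replicates were assumed to vary by a biological coefficient of 0.2 and 3 without a minimum fold. The count over the other lists, 16 in the main analysis, was 5 with that assumed variation and 49 without a minimum fold, and with spike-in scaling it was 13, split 5 higher in replicate 1 and 8 in replicate 2 against 16 and 0. Over all genes the calls were 1102, 242 with the assumed variation and 9204 without a minimum fold. Spike-in scaling reversed Chrna7 (log2 ratio -0.34) and Chrnb2 (-0.42), and Chrnb2 was also -0.03 from TPM + 1 and -0.04 from TPM + 0.1. With posterior mean TPM, 5 neighbours in the order of levels were apart in place of 3, and the leading Chrna4 transcript held 54.1%. Fewer calls follow from the construction of the assumed variation, and more from dropping the minimum fold; for the others the cause was not tested. From single libraries, 5 members were detected in either, the summed level was 42.6 to 50.5 TPM, the ratio of Chrna3 to Chrnb4 1.55 to 1.64, that of Chrna3 to Chrna7 0.725 to 1.31 and the Chrna4 transcript share 54.6% to 56.9%. Leaving out a library leaves no comparison of libraries. No paired analysis was possible because the libraries form 1 group. Depth limits Chrna5, Chrna9 and Chrna10, which had at most 31 counts in a library.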

Other observations

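For Chrna9 the deposited values for the same library disagree. Its TPM was 0 in replicate 1 and 0.07 in replicate 2, whereas its posterior mean TPM was 0.68 and 0.67 and the deposited interval ran from 0.176 to 1.29 TPM and from 0.197 to 1.23 TPM. The point values lie below their own intervals. Chrna9 has 7 transcripts in the table, 6 of them 831 bases or shorter. By posterior mean TPM, Chrna9 would stand above Chrna10 (0.39 and 0.23 TPM), against the order by TPM. That place rests on 0 and 1 counts, against 31 and 19 for Chrna10. Such a gap is not particular to Chrna9. Colq, with 5 and 10 counts, had 0.05 and 0.10 TPM and posterior mean TPM of 4.08 and 2.30 in replicates 1 and 2. For Chrna6 and Chrnb3, also at 0 counts, the posterior mean TPM was 0.01 in each library.

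Per length, there were 10.2 Chrna4 transcripts per 1000 of Nr5a1, the steroidogenic factor of the cortex, in replicate 1 (counting interval 9.53 to 10.9) and 9.45 in replicate 2 (8.97 to 9.94). This ratio was chosen after the values were seen, and the intervals overlap. Both genes were higher in replicate 2. Nr5a1 is 1 of 6 cortex markers, whose log2 ratios ran from -0.82 to -0.15. The other cortex markers were not used as reference. Which cells express Chrna4 was not tested.

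For Chrm3 the TPM values of 1.29 and 2.95 differ by more than its counts of 175 and 208. Slurp1, a secreted modulator of nicotinic receptors, had 16 counts in replicate 1 and 2 in replicate 2, too few to enter the test, and was named after its values were seen.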
